A study of Mus musculus with 22 samples.

Results

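The 10 genes described here encode the core chloride, bicarbonate and proton transporters of the intestinal epithelium, with the 2 basolateral potassium channels that keep chloride secretion running. They were taken by name (Cftr, Slc12a2, Slc26a3, Slc26a6, Slc9a3, Slc9a4, Slc4a4, Slc4a11, Kcnn4 and Kcnq1) from a table of 52636 genes, and each had a single row. The list was drawn with earlier results of these data known.

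The libraries are 22 bulk RNA-seq profiles of wild-type adult mouse duodenal organoids, grown from crypts in Matrigel and exposed to a cold atmospheric plasma (CAP), an ionised helium jet. Each organoid line came from an individual outbred mouse, and 4 lines were used, at passage 12 (line 1), 14 (line 2) and 4 (lines 3 and 4). Untreated organoids were profiled in all 4 lines. Lines 1, 2 and 4 were profiled in 6 treated groups of 3 libraries, namely direct CAP labelled 30 min or 24 h, indirect CAP (medium taken from another CAP-treated culture) labelled 30 min or 24 h, and plasma-activated medium (PAM, medium treated without organoids) labelled 30 min or 24 h. For direct CAP the study describes a moderate dose at day 1 and 30 min or 24 h until fresh medium, with transcriptomes analysed at day 3. Elsewhere it words 30 min as a time after treatment. For indirect CAP and PAM, the study's methods describe exposures that began at day 1 or at day 2 of culture. Those from day 1 were followed by fresh medium and those from day 2 ran to day 3. The start of exposure and the time in fresh medium therefore cannot be told apart. The label 30 min was read here as the start at day 1 and the label 24 h as the start at day 2, which is an inference. "Day-1 exposures" below are the 9 libraries of direct CAP 24 h, indirect CAP 30 min and PAM 30 min. Direct CAP 30 min also began at day 1 and is not among them. Libraries of a line come from the same mouse and are not independent of each other, and all comparisons with untreated organoids share the same 4 controls.

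Values are normalised read counts. The authors brought each library to a total of 20 M counts. Their definition of the unit also names division by transcript length. Within a library the low values share a single step across genes: whole numbers that 2 read counts reach after scaling held 1.79 to 2.30 times as many genes as their neighbours in 20 libraries, so the values were treated as not divided by length. Estimated depth was 19.38 to 28.68 M reads a library. The labels name the cells as stem cells of the epithelium. The summed count of 6 fibroblast markers was 2 to 17 in all libraries, with Lum at 0 throughout, and that of 9 enterocyte markers was 94115 to 212186. The untreated libraries of lines 1 and 2 went against their labels. The deviations of the untreated library of line 1 from its group mean had a median correlation of 0.211 with treated libraries of line 1 and 0.681 with those of line 2, and the untreated library of line 2 had 0.242 with its own line and 0.500 with line 1. Line 4 correlated with its own line at 0.761. The calls of members are therefore also given without both of them.

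In the secretory cells of the crypt, chloride is loaded across the basolateral membrane by the sodium-potassium-chloride cotransporter Slc12a2 (NKCC1) and leaves through the apical channel Cftr. Potassium exits through basolateral Kcnq1, which pairs with the beta subunit Kcne3, and through the calcium-activated channel Kcnn4. Bicarbonate is taken up by Slc4a4 and exchanged for chloride at the apical membrane by Slc26a6 and Slc26a3, while the apical exchanger Slc9a3 absorbs sodium and extrudes protons. Slc9a4 is a basolateral sodium/proton exchanger best known from acid-secreting cells of the stomach. Slc4a11 belongs to the bicarbonate transporter family by sequence and carries protons rather than bicarbonate.

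In outline, Slc9a4 and Slc4a11, both low in untreated organoids, rose by 2.48 and 2.52 on the log2 scale in the day-1 exposures. Kcnn4 and Kcnq1 fell in PAM 24 h by 1.28 and 1.21 on the log2 scale. Slc12a2 was lower in all 9 day-1 libraries without reaching the fold limit. Cftr, Slc26a3, Slc26a6, Slc9a3 and Slc4a4 did not pass the test in any comparison. A gene passed when the adjusted p of limma's moderated test was under 0.01 with a log2 fold change of at least 1 in size. In pooled day-1 exposures 2 of 10 members passed (both higher), where 6.34% of all 18490 genes tested did, 4.27% higher and 2.07% lower. In PAM 24 h 2 of 10 passed (both lower), where 17.3% of all genes did and 10.5% were lower. In PAM 30 min the 2 members that passed were higher, where 10.2% of all genes passed and 4.83% were higher. No member passed in direct CAP 30 min, direct CAP 24 h, indirect CAP 30 min or indirect CAP 24 h, where 0.00564%, 2.17%, 1.31% and 11.9% of genes did. At an adjusted p under 0.05 with no fold limit, 0, 3, 3 and 6 members were called there, beside 0.00564%, 17.3%, 20.6% and 43.8% of all genes, and the same numbers of members had an unadjusted p under 0.05, beside 24.9%, 32.6%, 38.6% and 52.1% of all genes. At an adjusted p under 0.05, 4 members were called in PAM 30 min and 6 in PAM 24 h, beside 41.8% and 47.6% of all genes. The 10 members had a median log2 fold change of -0.07 in the day-1 exposures and -0.07 in PAM 24 h, beside -0.05 and -0.12 over all genes tested.

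**Figure D1:**
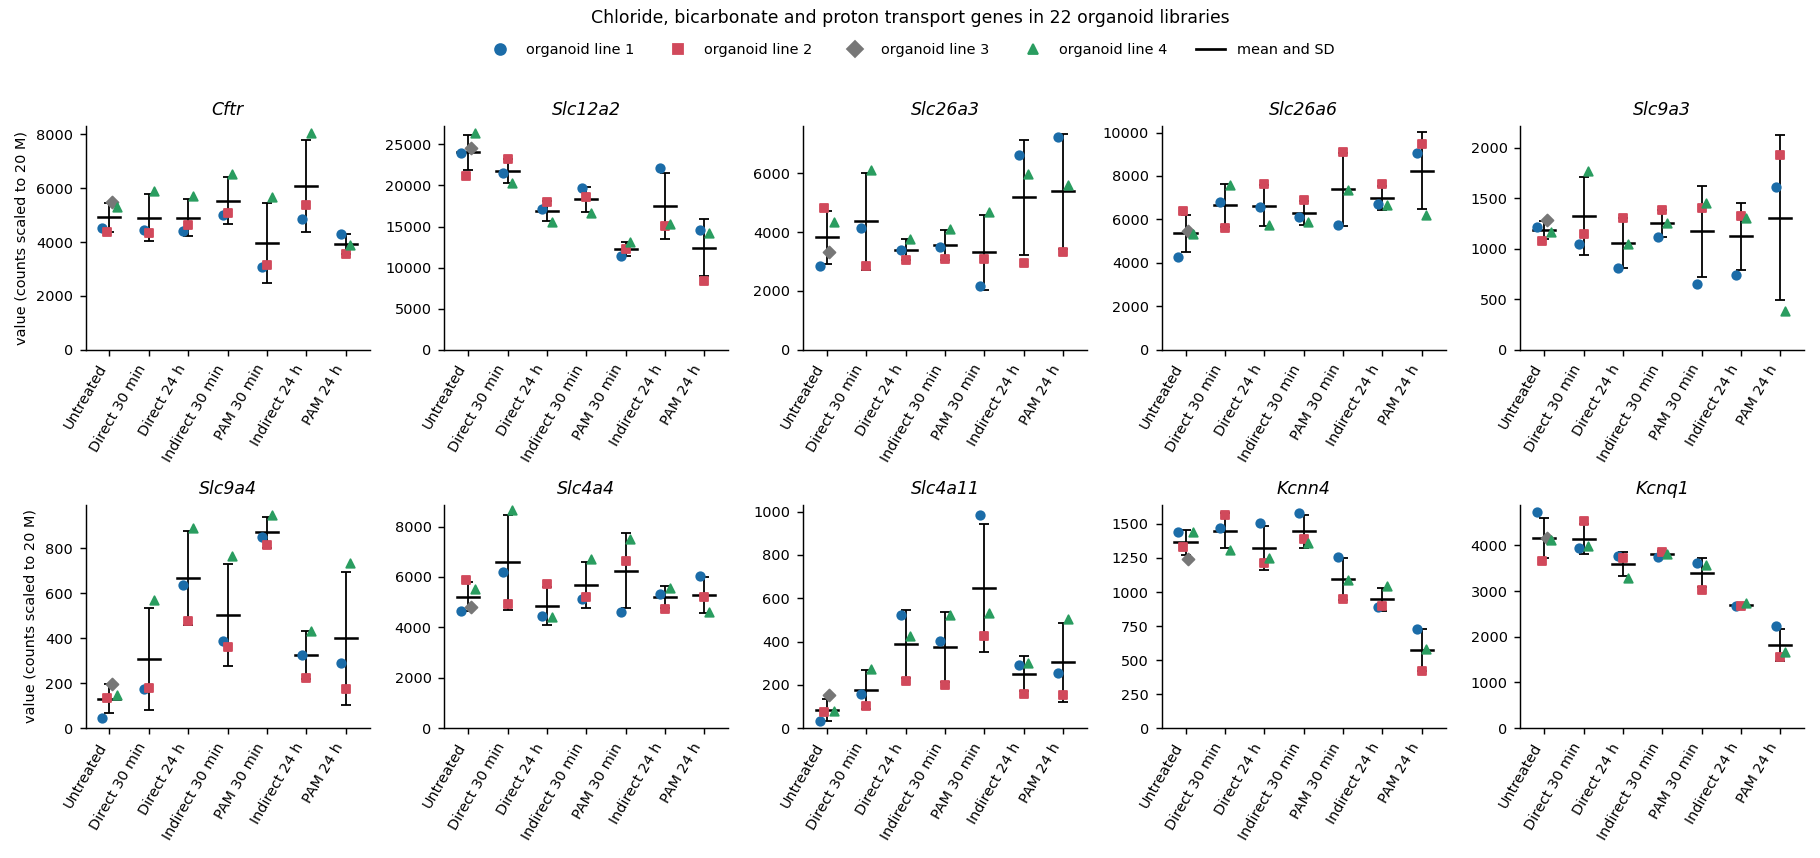
Normalised read count (counts scaled to 20 M, vertical axes from 0) of the 10 transporter and channel genes in each of the 22 libraries by group, with the mean and SD as black lines and the organoid line as marker. Slc9a4 and Slc4a11 stand above all untreated libraries in the 9 day-1 exposures, and Kcnn4 (417 to 728) and Kcnq1 (1555 to 2226) are lowest in PAM 24 h.

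Levels in untreated organoids, per kilobase of annotated exon, formed wide tiers. Slc12a2 was highest at 2201 ± 197 counts per kilobase (SD, n = 4). Kcnq1 at 1019 ± 106 and Slc26a6 at 990 ± 161 followed, and their ranges overlapped. Cftr at 633 ± 71.5, Slc26a3 at 601 ± 141 and Slc4a4 at 482 ± 53.3 formed the next tier, in which the ranges of Cftr and Slc26a3 and of Slc26a3 and Slc4a4 overlapped. Kcnn4 (267 ± 18.5) and Slc9a3 (216 ± 15.5) did not overlap each other. Slc9a4 at 28.7 ± 14.0 and Slc4a11 at 16.9 ± 9.96 were the lowest and overlapped. In PAM 24 h Slc26a6 had the highest mean per kilobase, 1523 ± 327, beside 1136 ± 319 for Slc12a2 (SD, n = 3), and these ranges overlapped.

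Slc9a4 (chr1:40580081-40630725 on GRCm38, plus strand) had counts of 44, 133, 197 and 149 in untreated lines 1 to 4. In lines 1, 2 and 4 it had 637, 475 and 893 in direct CAP 24 h, 386, 363 and 767 in indirect CAP 30 min, and 850, 814 and 950 in PAM 30 min. All 9 day-1 libraries lay above all 4 untreated ones, and no overlap in that direction was seen for 7.16% of all genes. The mean rose from 131 ± 63.9 (SD, n = 4) to 682 ± 225 (SD, n = 9), a log2 fold change of 2.48 (SE 0.35, adjusted p = 0.000338), which ranked 135th from the top among 18490 genes. The exact two-sided permutation p over the 13 libraries was 0.0028, the smallest that exchanging them freely can give, and it takes no account of libraries that share a line.

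Among single groups Slc9a4 passed in PAM 30 min, with a log2 fold change of 2.91 (SE 0.44, adjusted p = 0.00141). In direct CAP 24 h it was 2.48 (adjusted p = 0.0117) and in indirect CAP 30 min 2.04 (adjusted p = 0.0243), with 3 of 3 libraries above all untreated in each. Of the single groups against untreated organoids, the share of all genes without overlap is given only for PAM 24 h (32.6% lower). Such counts in the other groups describe the gene alone, and how common they are among all genes is not given. Direct CAP 30 min gave 174, 178 and 572, of which only line 4 lay above the untreated range, and the log2 fold change was 1.18 (SE 0.57, adjusted p = 0.237). The day-2 exposures gave 324, 221 and 431 in indirect CAP 24 h (1.44, adjusted p = 0.038) and 292, 172 and 736 in PAM 24 h (1.53, adjusted p = 0.0668). Within line 4, whose untreated library matched its label, the ratio to the untreated value was 5.99 in direct CAP 24 h, 5.15 in indirect CAP 30 min and 6.38 in PAM 30 min.

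Slc4a11 (chr2:130684113-130697519, minus strand) followed the same order of groups. Its untreated counts were 32, 76, 152 and 78. The counts in lines 1, 2 and 4 were 522, 216 and 426 in direct CAP 24 h, 404, 199 and 522 in indirect CAP 30 min, and 985, 426 and 531 in PAM 30 min. The lowest day-1 library, 199, was above the highest untreated one, 152. The mean rose from 84.5 ± 49.8 (SD, n = 4) to 470 ± 229 (SD, n = 9), a log2 fold change of 2.52 (SE 0.40, adjusted p = 0.000665), ranked 128th from the top. In PAM 30 min it was 3.03 (SE 0.49, adjusted p = 0.00188).

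In direct CAP 24 h the log2 fold change of Slc4a11 was 2.29 (adjusted p = 0.0177) and in indirect CAP 30 min 2.23 (adjusted p = 0.0205). Its counts were 158, 102 and 275 in direct CAP 30 min, where line 2 lay within the untreated range (1.15, SE 0.51, adjusted p = 0.202). They were 293, 157 and 303 in indirect CAP 24 h (1.70, adjusted p = 0.0199) and 255, 152 and 506 in PAM 24 h (1.86, adjusted p = 0.024). Line 2 gave the lowest Slc4a11 count of its group in all 6 treated groups. Within line 4 the ratio to the untreated value was 5.46, 6.69 and 6.81 in direct CAP 24 h, indirect CAP 30 min and PAM 30 min.

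Leaving out any single library kept both calls in the day-1 comparison (13 of 13 fits each, with log2 fold changes of 2.03 to 2.74 for Slc9a4 and 2.12 to 2.86 for Slc4a11). Without the untreated libraries of lines 1 and 2, an alternative with fewer controls that was added after seeing the data, both calls were lost. The log2 fold changes were 1.90 (adjusted p = 0.0102) for Slc9a4 and 1.95 (adjusted p = 0.026) for Slc4a11. In PAM 30 min Slc9a4 still passed without them, and Slc4a11 had 2.47 (adjusted p = 0.0106). The genes Gm37435 and Gm35801 share 764 and 207 exon bases with Slc9a4, and whether the counting used strand is not given in the sources used here, so reads of these bases cannot be told apart. Gm37435 had 12 to 34 counts in untreated libraries and 148 to 194 in PAM 30 min, and Gm35801 had 5 to 21 and 74 to 83.

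Summed counts of 2 sets of epithelial markers are given beside Slc9a4 and Slc4a11. The summed count of 6 markers of fetal-like regenerating epithelium was 1802 to 8350 in untreated organoids, 17235 to 27698 in direct CAP 24 h, 13844 to 20243 in indirect CAP 30 min and 24075 to 28511 in PAM 30 min. It was 7035 to 14287 in direct CAP 30 min, 14521 to 22444 in indirect CAP 24 h and 15237 to 21360 in PAM 24 h. Of these 6, 4 passed in the day-1 exposures, all higher, and 2 did not, with log2 fold changes from -0.95 to 3.32. Clu (2.12, adjusted p = 0.000961) and Ly6a (2.60, adjusted p = 0.00112) rose, each in 9 of 9 libraries. The summed count of 6 markers of Brunner's glands and gastric epithelium was 128 to 3488 in untreated organoids, 2658 to 16763 in direct CAP 24 h, 1628 to 11384 in indirect CAP 30 min and 4331 to 19340 in PAM 30 min, so that the ranges overlapped in the first 2. In direct CAP 30 min it was 664 to 13647, in indirect CAP 24 h 826 to 4869 and in PAM 24 h 830 to 4567. In the day-1 exposures 0 of these 6 passed, with log2 fold changes from 0.55 to 2.64. The part of either marker set in the change of Slc9a4 or Slc4a11 was not tested. In bulk libraries more cells of a type and more RNA per cell cannot be told apart.

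Kcnn4 (chr7:24370263-24386690, plus strand) encodes the intermediate-conductance calcium-activated potassium channel. It is the only member that changed whose transcription start is listed in the RefSeq promoter table (GRCm38.p6), so the 250 bases before that start, chr7:24370013-24370262 on the plus strand, are shown here. Capitals mark the single match to the 6 letter patterns that were searched on both strands, GGAATG (a core of TEAD sites), which starts 63 bases before the transcription start.

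Kcnn4: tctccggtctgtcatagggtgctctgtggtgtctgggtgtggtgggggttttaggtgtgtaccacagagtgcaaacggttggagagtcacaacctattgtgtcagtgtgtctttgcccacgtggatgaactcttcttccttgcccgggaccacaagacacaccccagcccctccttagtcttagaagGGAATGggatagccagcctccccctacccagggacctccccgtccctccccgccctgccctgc

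The GC content of this window was 58.8%. The letters GGAATG occur in 12.6% of 32851 promoter windows of this length, so the match is a description and not a site. The other patterns were TGANTCA (AP-1, in 6.75% of windows), TGACGTCA (CRE, 1.55%), CAAAGTCCA (HNF4 core, 0.384%), TATAAA (the box bound by TBP, 12.4%) and TGACNNNGC (antioxidant response element, 10.2%). Windows were also listed for Cftr, Slc26a3, Slc26a6, Slc9a3 and Slc4a4, the last with 2 starts. Among them a single match was found, TATAAA starting 30 bases before the start of Slc26a3. Slc9a4, Slc4a11, Kcnq1 and Slc12a2 were not matched.

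Kcnn4 had untreated counts of 1438, 1333, 1243 and 1441. In lines 1, 2 and 4 of PAM 24 h it had 728, 417 and 582, all below the lowest untreated library. The mean fell from 1364 ± 94.9 (SD, n = 4) to 576 ± 156 (SD, n = 3), a log2 fold change of -1.28 (SE 0.18, adjusted p = 0.00105). This fold change ranked 1760th from the lowest among 17694 genes. In indirect CAP 24 h the counts were 893, 900 and 1044, again all below the untreated range, with a log2 fold change of -0.53 (SE 0.09, adjusted p = 0.00223) that did not reach the fold limit. In PAM 30 min they were 1258, 950 and 1085 (-0.32, adjusted p = 0.0461), and line 1 lay within the untreated range. Direct CAP 30 min, direct CAP 24 h and indirect CAP 30 min gave 1211 to 1584, with log2 fold changes between -0.05 and 0.09.

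Kcnq1 (chr7:143106362-143427042, plus strand), a voltage-gated potassium channel that stays open at rest with Kcne3, also passed in PAM 24 h alone. Its untreated counts were 4732, 3669, 4170 and 4114, and PAM 24 h gave 2226, 1555 and 1674. The mean fell from 4171 ± 436 (SD, n = 4) to 1818 ± 358 (SD, n = 3), a log2 fold change of -1.21 (SE 0.14, adjusted p = 0.00057). This fold change ranked 1929th from the lowest among 17694 genes. Indirect CAP 24 h gave 2669, 2684 and 2733, below all untreated libraries and above all PAM 24 h libraries, with a log2 fold change of -0.62 (SE 0.09, adjusted p = 0.000979).

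In PAM 30 min Kcnq1 had 3617, 3034 and 3564 (-0.29, adjusted p = 0.0564), 3 of 3 below the untreated range. The other treated groups gave 3291 to 4530. For both channels no overlap in PAM 24 h has a background of 32.6% of all genes lower. Within line 4 the PAM 24 h value was 0.404 of the untreated value for Kcnn4 and 0.407 for Kcnq1.

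Over all genes tested, the PAM 24 h fold changes had a log2 median of -0.12, which quantile normalisation moved to 0.00. Relative to that median the changes were -1.16 for Kcnn4 and -1.09 for Kcnq1, and under quantile normalisation they were -1.09 (adjusted p = 0.0016) and -1.18 (adjusted p = 0.000499). Without the untreated libraries of lines 1 and 2 the fold changes stayed near these values, -1.25 (adjusted p = 0.0222) for Kcnn4 and -1.20 (adjusted p = 0.0133) for Kcnq1. Neither passed with these fewer controls. Kcnq1ot1, an antisense RNA that shares 121 exon bases with Kcnq1, had 1343 to 2810 counts in untreated libraries and 1674 to 2077 in PAM 24 h.

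Kcne3, the beta subunit of Kcnq1 in this epithelium, is not one of the 10 genes but is shown as the partner of Kcnq1 and was chosen after its values were seen. It had 1170 to 1429 counts in untreated organoids, 787 to 1040 in direct CAP 30 min, 559 to 806 in indirect CAP 30 min, 605 to 761 in direct CAP 24 h and 382 to 492 in PAM 30 min. In the day-1 exposures it fell by 1.12 on the log2 scale (SE 0.20, adjusted p = 0.00127), although Kcnq1 itself had -0.21 (SE 0.08, adjusted p = 0.0597) there. In PAM 24 h it had 102 to 409 and fell by 2.62 (SE 0.39, adjusted p = 0.00137), beside 1.21 for Kcnq1. In direct CAP 30 min it lay below all untreated libraries (-0.49, SE 0.11, adjusted p = 0.106), whereas Kcnq1 did not. The difference between the pair was not tested.

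Stem cell and proliferation markers were low in PAM 24 h, where the potassium channels fell. The summed count of 6 crypt base stem cell markers was 34670 to 41713 in untreated organoids, 5969 to 12023 in direct CAP 24 h, 6691 to 16372 in indirect CAP 30 min, 1799 to 3181 in PAM 30 min, 3278 to 4692 in indirect CAP 24 h and 1182 to 3368 in PAM 24 h. That of 6 proliferation markers was 21367 to 27540, 15111 to 19041, 15213 to 20852, 11099 to 16585, 8074 to 10137 and 4057 to 8195 in the same groups. In direct CAP 24 h and indirect CAP 30 min both sums were below the untreated range, and Kcnn4 had log2 fold changes of -0.05 and 0.08. Between PAM 30 min and PAM 24 h the ranges of the stem marker sum overlapped and those of the proliferation sum did not. In the moderated test of PAM 24 h against PAM 30 min, Kcnn4 and Kcnq1 had adjusted p = 0.0693 and 0.0553. In PAM 24 h Lgr5 (-5.87, adjusted p = 0.000587), Olfm4 (-5.78, adjusted p = 0.000288), Mki67 (-2.50, adjusted p = 0.000627) and Top2a (-2.33, adjusted p = 0.000419) fell, as did all 6 genes of each list. Of 9 enterocyte markers 1 passed, the brush border phosphatase Alpi, which rose (1.42, adjusted p = 0.0024). The sucrase Sis had -0.02 (adjusted p = 0.974), and the fatty acid binding protein Fabp2 had -1.77 (adjusted p = 0.0278) and the apolipoprotein Apoa1 -1.29 (adjusted p = 0.048), each with 3 of 3 libraries below the untreated range. The part of these cell states in the change of the channels was not tested.

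**Figure D2:**
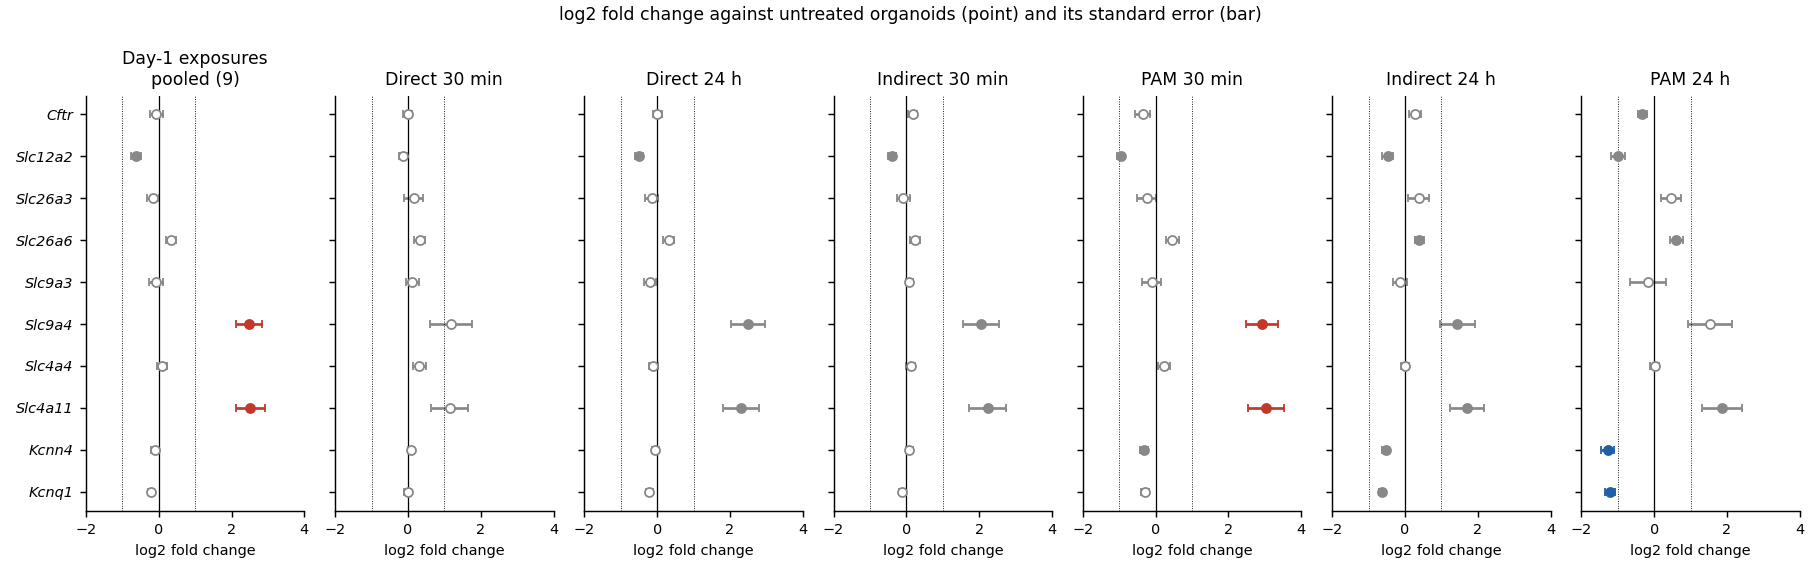
log2 fold change against untreated organoids (horizontal axes, point) with its standard error (bar) for the 10 genes in 7 comparisons, with dotted lines at the fold limit of 1 in size. Red and blue points passed the test, filled grey points had an adjusted p under 0.05, and open points did not. Slc9a4 and Slc4a11 lie to the right in all 7 panels, and Kcnn4 and Kcnq1 pass to the left in PAM 24 h.

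Slc12a2 (chr18:57878678-57946821, plus strand), the basolateral chloride loader and the highest member per kilobase, had untreated counts of 23962, 21178, 24628 and 26352. PAM 30 min gave 11406, 12310 and 13164, with a log2 fold change of -0.96 (SE 0.10, adjusted p = 0.000349), just short of the fold limit. PAM 24 h gave 14550, 8386 and 14268, with -0.99 (SE 0.20, adjusted p = 0.0047), also just short. All 6 PAM libraries lay below the lowest untreated one. Both comparisons passed under quantile normalisation, at -1.04 and -1.09. PAM 30 min also passed without untreated line 2 (-1.02), without PAM line 4 (-1.02) and without the untreated libraries of lines 1 and 2 (-1.05, adjusted p = 0.00369), and PAM 24 h without its line 4 (-1.12) or line 1 (-1.13). The median over all genes tested was -0.13 in PAM 30 min.

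In direct CAP 24 h Slc12a2 had 17144, 17984 and 15588 (-0.51, adjusted p = 0.0194) and in indirect CAP 30 min 19652, 18644 and 16654 (-0.39, adjusted p = 0.0348). Over the 9 day-1 exposures the mean was 15838 ± 2930 (SD, n = 9) beside 24030 ± 2152 (SD, n = 4) in untreated organoids, a log2 fold change of -0.62 (SE 0.14, adjusted p = 0.00472), with 9 of 9 below all untreated libraries. No overlap in that direction was seen for 10.5% of all genes. Indirect CAP 24 h gave 22089, 15054 and 15356 (-0.48, adjusted p = 0.0308), of which line 1 lay within the untreated range. In direct CAP 30 min the counts were 21546, 23278 and 20354 (-0.14, SE 0.10, adjusted p = 0.423).

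Cftr (chr6:18170687-18322768, plus strand), the cyclic AMP-gated apical chloride channel, had untreated counts of 4522, 4358, 5475 and 5297. The day-1 exposures ranged from 3088 to 6539, with a median of 5012, on both sides of the untreated range, and the log2 fold change was -0.07 (SE 0.18, adjusted p = 0.807). PAM 30 min gave 3088, 3134 and 5687, in which lines 1 and 2 were below and line 4 above the untreated range. In PAM 24 h the counts were 4298, 3572 and 3892, all below the untreated range (-0.32, SE 0.12, adjusted p = 0.0489). Indirect CAP 24 h gave 4840, 5361 and 8037, the last the highest Cftr count of the 22 libraries. Gm15592, on the antisense strand, shares 129 exon bases with Cftr and had 173 to 437 counts over the libraries.

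Neither chloride/bicarbonate exchanger passed the test in any comparison. Slc26a6 (chr9:108853283-108913049), the exchanger of the upper small intestine, had 4254, 6377, 5462 and 5325 in untreated organoids and 9046, 9470 and 6211 in PAM 24 h (0.61, SE 0.18, adjusted p = 0.0253), where line 4 lay within the untreated range. In indirect CAP 24 h it had 6707, 7633 and 6641, all above the untreated range (0.40, SE 0.13, adjusted p = 0.0382). Over the day-1 exposures the log2 fold change was 0.34 (SE 0.13, adjusted p = 0.0581). Slc26a3 (chr12:31390871-31473917), known for chloride absorption in the lower bowel, had 2857, 4810, 3312 and 4332 in untreated organoids and 2168 to 4702 in the day-1 exposures (-0.16, SE 0.18, adjusted p = 0.517). In the day-2 exposures its lines spread widely, at 6620, 2952 and 5976 in indirect CAP 24 h and 7227, 3323 and 5612 in PAM 24 h (0.45, SE 0.28, adjusted p = 0.21). Line 2 was the low library in both.

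Slc4a4 (chr5:88886818-89239653), the basolateral sodium-bicarbonate cotransporter, had 4649, 5861, 4808 and 5522 in untreated organoids. It had 4412 to 7508 in the day-1 exposures (0.08, SE 0.14, adjusted p = 0.679) and 6036, 5202 and 4624 in PAM 24 h (0.02, SE 0.13, adjusted p = 0.913). Its highest count, 8646, was line 4 in direct CAP 30 min. Slc9a3 (chr13:74121457-74169442), the apical sodium/proton exchanger, had 1217, 1082, 1284 and 1164 in untreated organoids and 648 to 1457 in the day-1 exposures (-0.08, SE 0.19, adjusted p = 0.784). PAM 24 h gave 1617, 1932 and 379 (-0.16, SE 0.50, adjusted p = 0.807), in which lines 1 and 2 lay above and line 4 below all untreated libraries. Of the exchanger pair, Slc9a4 passed in the day-1 exposures and Slc9a3 did not, and the difference between them was not tested.

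Comparisons between treated groups address whether the label time or the kind of medium mattered. No member passed in direct CAP 24 h against 30 min, indirect CAP 24 h against 30 min, PAM 24 h against 30 min or PAM 24 h against indirect CAP 24 h, where 0%, 0.0111%, 0% and 0% of all genes did. At an unadjusted p under 0.05 there were 3, 2, 4 and 3 members, beside 21.4%, 21.7%, 26.8% and 9.48% of all genes. With 3 libraries against 3 the exact permutation test cannot go below 0.1. In direct CAP 24 h against 30 min the log2 difference was 1.31 (SE 0.47, adjusted p = 0.207) for Slc9a4 and 1.14 (SE 0.43, adjusted p = 0.212) for Slc4a11. PAM 24 h against 30 min gave -1.38 (SE 0.48, adjusted p = 0.128) for Slc9a4, -0.96 (SE 0.22, adjusted p = 0.0693) for Kcnn4 and -0.92 (SE 0.16, adjusted p = 0.0553) for Kcnq1, each with 3 of 3 libraries below, as for 16.9% of all genes. In indirect CAP 24 h against 30 min all 3 libraries were also below for Kcnn4 and Kcnq1, as for 14.7% of all genes, and both had an adjusted p under 0.05, as did 2.21% of all genes in that direction and 3.37% in either.

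Correlations over the 22 libraries are given for the 2 pairs of members that passed in the same comparisons. On the log2 scale Slc9a4 and Slc4a11 had a Pearson correlation of 0.94, and Kcnn4 and Kcnq1 had 0.96. Kcnq1 and Kcne3 had 0.84. Beside the marker genes, Kcnq1 and Mki67 had 0.96, Slc9a4 and Clu had 0.93, and Slc12a2 and Lgr5 had 0.83. Slc12a2 had 0.69 with Kcnn4 and 0.69 with Kcnq1. These are descriptions over libraries that share lines, groups and controls. The 2 pairs of members were picked by passing together in these libraries, and Kcne3 was chosen after its values were seen. Among genes with a mean of at least 100 counts, those most like Slc9a4 were Rdh10 (r = 0.97) and Abhd4 (r = 0.95), and those most like Slc4a11 were Myof (r = 0.97) and Serpinb5 (r = 0.96). For Kcnn4 they were Ndc1 (r = 0.97) and Pcyox1l (r = 0.97), and for Kcnq1 Chtf18 (r = 0.98) and Pcyox1l (r = 0.98). Slc12a2 was most like Mpzl1 and Aqp1 (r = 0.93 each).

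For Slc26a3, Slc26a6, Slc9a3 and Slc4a4 the closest patterns were looser. They were Neurl1b (r = 0.82) and B3galt5 (r = 0.77) for Slc26a3, Sema6a (r = 0.84) and Sec23a (r = 0.83) for Slc26a6, Gk5 (r = 0.89) and Trim31 (r = 0.82) for Slc9a3, and Mtmr4 (r = 0.82) and Os9 (r = 0.75) for Slc4a4. Cftr was most like its antisense neighbour Gm15592 (r = 0.94), with which it shares exon bases, and then Rffl (r = 0.85).

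**Figure D3:**
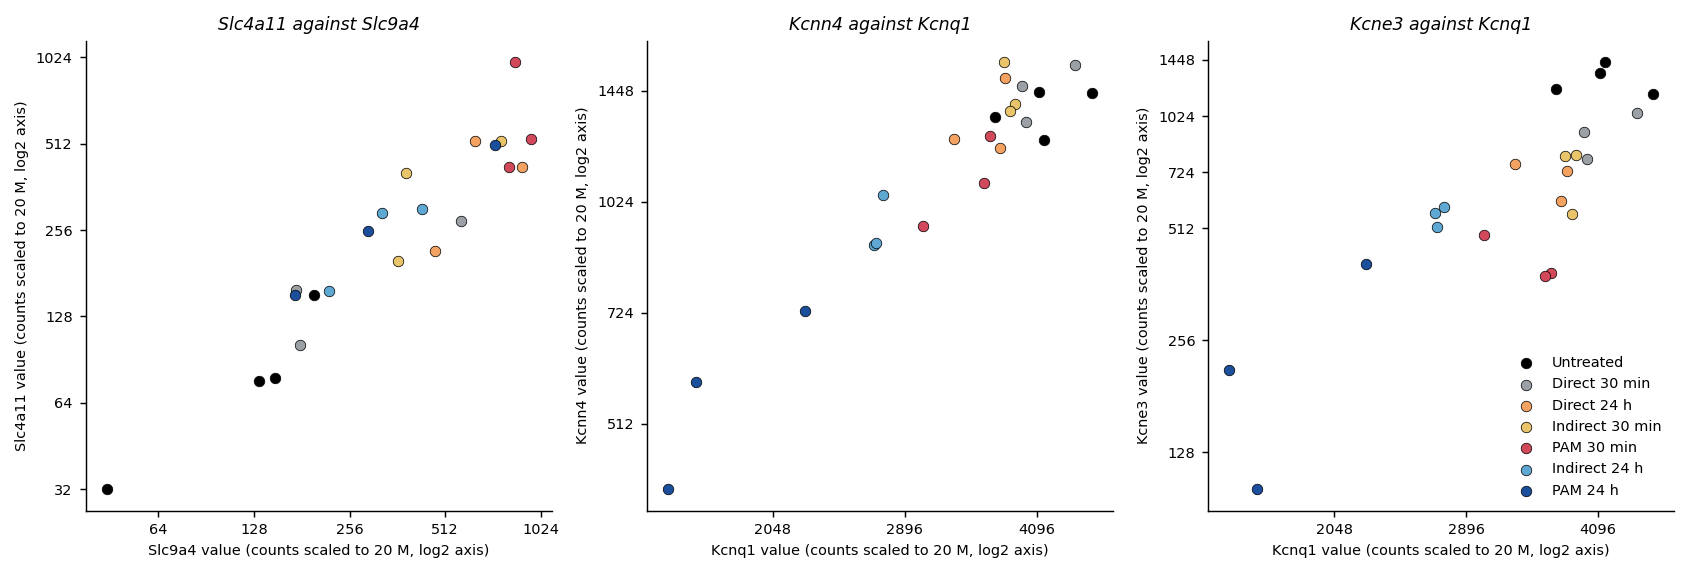
Normalised read counts (both axes log2) of 3 gene pairs in the 22 libraries, coloured by group. Slc4a11 and Slc9a4 run from the untreated libraries at the lower left to PAM 30 min at the upper right (r = 0.94), Kcnn4 and Kcnq1 fall together in indirect CAP 24 h and PAM 24 h (r = 0.96), and in PAM 30 min Kcne3 is low at 382 to 492 while Kcnq1 is at 3034 to 3617.

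Of 117 further genes of ion and acid-base transport, 90 were tested in the day-1 exposures. Of these, 7 rose and 4 fell, and the median log2 fold change was 0.14. In PAM 24 h 85 were tested, 6 rose, 7 fell, and the median was 0.03. The background among all genes was 4.27% higher and 2.07% lower in the day-1 exposures, and 6.82% higher and 10.5% lower in PAM 24 h. Without the untreated libraries of lines 1 and 2, 1 rose and 0 fell in the day-1 exposures, and 0 of 83 passed in PAM 24 h, where Kcne3 had -2.73 (adjusted p = 0.0221), Clic6 -2.92 (0.0127), Shank2 -2.17 (0.0126) and Ezr 1.45 (0.0308). In direct CAP 30 min 0 of 83 tested genes passed, and 19 of them had an unadjusted p under 0.05, beside 24.9% of all genes.

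Among 19 tested chloride channels and their modifiers, 2 rose and 1 fell in the day-1 exposures. Clca1, a secreted goblet cell protein, went from 3362 ± 1022 (SD, n = 4) to 10437 ± 5201 (SD, n = 9), a log2 fold change of 1.51 (SE 0.37, adjusted p = 0.00702). This call was lost in 8 of 13 fits that left out a library, including each of the 4 untreated ones, with adjusted p up to 0.0312. Its relative Clca2 was at only 6 to 14 counts untreated and had 1.50 (SE 0.32, adjusted p = 0.00313), a call lost without untreated line 1 (adjusted p = 0.0148) or line 2 (0.0153). Clic6, of the intracellular chloride channel family, fell from 1096 ± 248 to 415 ± 167 (-1.46, SE 0.26, adjusted p = 0.00115) and had -2.89 (adjusted p = 0.000374) in PAM 24 h.

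Of 10 further Slc26 and Slc4 carriers 1 rose, the sulphate transporter Slc26a2, at 1.78 (SE 0.32, adjusted p = 0.00135), from 2251 ± 813 to 7903 ± 3177. Among 5 further cation-chloride cotransporters 1 rose, the potassium-chloride cotransporter Slc12a4, from 19.8 ± 8.66 to 82.3 ± 41.5 counts (1.97, SE 0.44, adjusted p = 0.00444). This call was lost without untreated line 1 (adjusted p = 0.0226), line 2 (0.0116) or line 4 (0.01004). None of 8 further sodium/proton exchangers and proton pumps, of 10 carbonic anhydrases or of 6 genes of the sodium pump and epithelial sodium channel passed. Kcne3 was the only one of 6 further potassium channels and subunits that did.

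Of 7 PDZ scaffolds and linkers, some of which hold Cftr and Slc9a3 at the apical membrane, 1 rose and 1 fell. Shank2, a scaffold that binds both, fell from 892 ± 240 (SD, n = 4) to 309 ± 137 (SD, n = 9), -1.61 (SE 0.31, adjusted p = 0.00176), and had -2.38 (adjusted p = 0.000411) in PAM 24 h. Ezr, which ties such scaffolds to actin, rose from 6643 ± 482 to 14583 ± 3815 (1.09, SE 0.17, adjusted p = 0.000651) and had 1.50 (adjusted p = 0.00187) in PAM 24 h.

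Of 19 kinases and signalling genes, 2 rose and 1 fell in the day-1 exposures. P2ry2, the receptor for extracellular ATP and UTP that triggers calcium-dependent secretion, rose from 162 ± 17.4 to 374 ± 74.3 (1.18, SE 0.15, adjusted p = 0.000154) and was the only one of the 11 genes that still passed without the untreated libraries of lines 1 and 2 (1.15, adjusted p = 0.00929). The kinase Sgk1, which raises sodium transport, had 1.12 (SE 0.22, adjusted p = 0.00205), a call lost without untreated line 2 (adjusted p = 0.0106). The kinase Wnk2 had -1.21 (SE 0.31, adjusted p = 0.00901), a call lost in 9 of 13 such fits with adjusted p up to 0.0422.

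**Figure D4:**
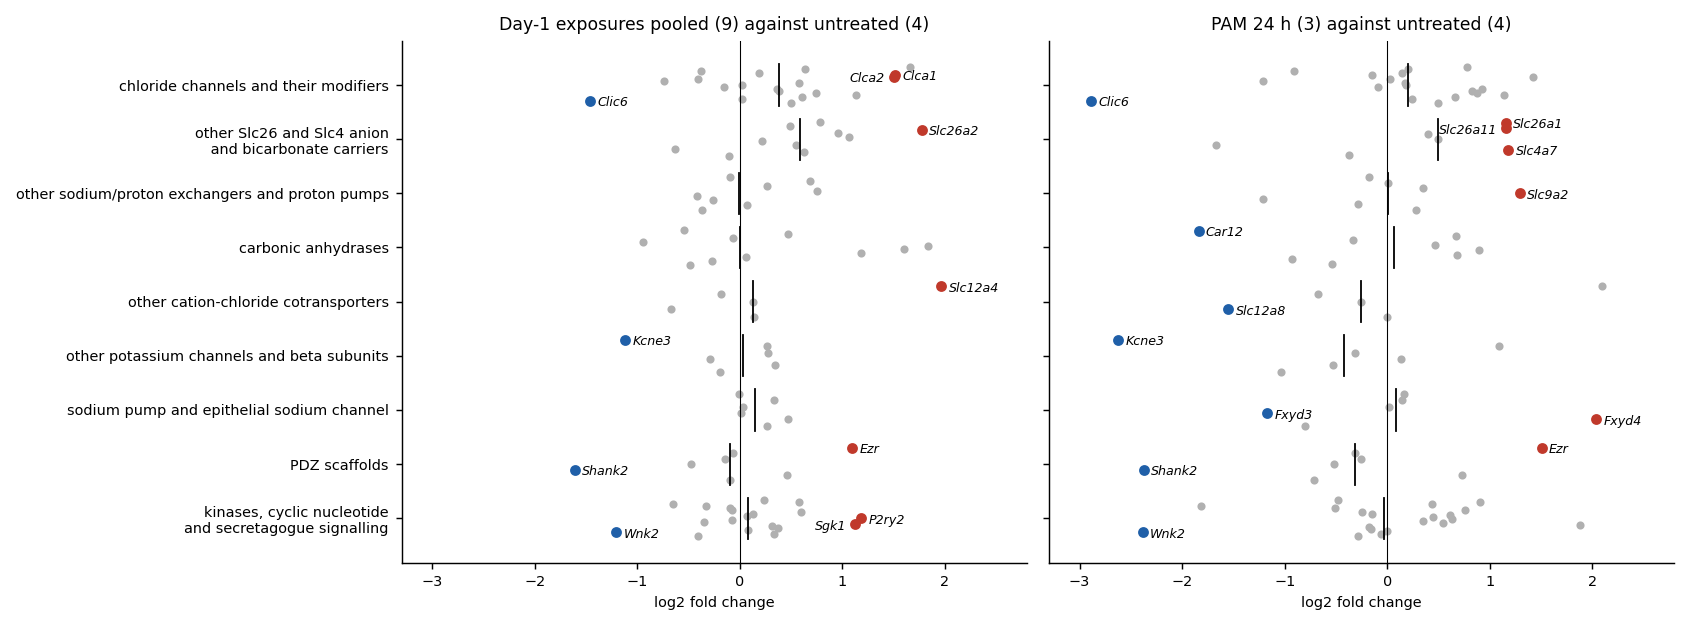
log2 fold change (horizontal axes) of the further transport genes by role in the 9 day-1 exposures and in PAM 24 h, each against 4 untreated libraries. Each point is a tested gene, coloured and named when it passed the test, and the black bar is the median of the role. Kcne3, Clic6, Shank2 and Wnk2 lie to the left and Ezr to the right in both panels.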

How the data were processed

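RNA of 22 mouse organoid cultures was sequenced as paired-end libraries. The authors trimmed reads with Trimmomatic 0.36, aligned them with STAR 2.5.3a, counted genes with HTSeq 0.9.1 and deposited a score for each gene, a count scaled to 20 M per library and rounded up to a whole number. Library sums were 20007540 to 20016513. As the values are scaled and rounded, count models were not used. Groups follow the labels. The test was limma 3.58.1 (R 4.3.3, moderated, with a trend) on log2(value + 1), on genes with at least 10 in at least 3 libraries of the fit. P-values were adjusted by Benjamini-Hochberg over all genes tested. A fold change on this scale understates changes of low genes. Exact permutation tests used scipy 1.17.1. With 3 libraries against 4, such a test cannot go below 0.0571. In tests on simulated data for the day-1 comparison, 96 of 100 genes changed by a log2 of 2 were found, with 1 false call. The same test found 77 of 100 for direct CAP 30 min against untreated (1 false call) and 80 of 100 for direct CAP 24 h against 30 min (2 false calls). The simulated libraries had no line effect, so these counts do not cover libraries that share a line. Annotation was GENCODE vM21, to which 99.56% of genes matched by identifier. Libraries of a line come from the same mouse, and their deviations from group means had a median correlation of 0.684, beside -0.398 between lines. The authors' RNA kit and the passage of 2 lines differ between labels and methods. The named genes are all 10 members, further transport genes that passed in the day-1 comparison (at most 3 a role), the first 2 of 4 marker lists, and the 2 genes most like each member. Members and lists were chosen with earlier results of these data known.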

Additional observations from a re-analysis of the deposited data

Results flagged for a closer look

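Kcnn4 and Kcnq1 differed between the 2 indirect CAP groups in the direct test of that difference, at an adjusted p under 0.05. Kcnn4 was -0.611 on the log2 scale (SE 0.10, adjusted p = 0.034) in indirect CAP 24 h against indirect CAP 30 min, with 893, 900 and 1044 counts against 1584, 1389 and 1361. Kcnq1 was -0.500 (SE 0.07, adjusted p = 0.0237), with 2669, 2684 and 2733 counts against 3752, 3865 and 3819. In both genes 3 of 3 libraries lay below all 3 of the other group, which was so for 14.7% of all genes, and 2.21% of all genes were lower at that adjusted p. Neither passed the fold limit of 1. The summed proliferation markers were 8074 to 10137 in indirect CAP 24 h and 15213 to 20852 in indirect CAP 30 min, and their part in the difference was not tested.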

How the results depend on the processing

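No member that passed changed direction under any alternative run, whereas 78 of 1540 alternative values of the 10 genes, all in comparisons where that gene did not pass, changed sign. The count of members that passed was 0 in direct CAP 30 min under every alternative run. In direct CAP 24 h, where 0 members and 376 of all 17335 genes passed, 1 member (Slc9a4) passed under quantile normalisation, beside 418 of 17335 genes. It also passed with a pseudocount of 10, beside 390 of 17335. With all groups in 1 fit 2 members passed there, beside 449 of 19370 genes. That fit also made Slc4a11 pass in PAM 24 h (1.86, adjusted p = 0.00575), beside 3921 of 19370 genes. Leaving out 1 library gave 0 to 1 members in direct CAP 24 h (Slc9a4 without untreated line 1, adjusted p = 0.00832, beside 108 of 17158 genes). It gave 0 to 1 in indirect CAP 24 h (Slc4a11 without untreated line 3, adjusted p = 0.00675, beside 2185 of 17523). In PAM 30 min and PAM 24 h it gave 2 to 3, the third being Slc12a2. The fits in which Slc12a2 passed had 1383 of 17148 and 1134 of 17056 genes in PAM 30 min. In PAM 24 h they had 2323 of 17220 and 2946 of 17190. When organoid line entered the fit as a replicate block, 1 member passed in direct CAP 24 h (Slc9a4, 2.74, adjusted p = 0.00719), beside 351 of 17335 genes. In indirect CAP 30 min 1 passed (Slc9a4, 2.30, adjusted p = 0.00914), beside 322 of 17818. The block changed no other call of a member. It used the labelled lines, which the untreated libraries of lines 1 and 2 went against, so blocked fits with untreated organoids may pair wrong libraries. At an adjusted p under 0.05 with no fold limit, 3 members were called in direct CAP 24 h and 3 in indirect CAP 30 min, 4 in PAM 30 min, 6 in indirect CAP 24 h, 6 in PAM 24 h and 2 in indirect CAP 24 h against 30 min, beside 17.3%, 20.6%, 41.8%, 43.8%, 47.6% and 3.37% of all genes. Without the untreated libraries of lines 1 and 2 (added after seeing the data, with fewer samples) 0 passed in the day-1 exposures and 0 in PAM 24 h, and the genes passing overall went from 1173 to 148 and from 3063 to 1. The block raised the genes passing overall from 0 to 200 in direct CAP 24 h against 30 min and from 2 to 623 in indirect CAP 24 h against 30 min. Depth limits Slc9a4 and Slc4a11 most, as their untreated counts were 32 to 197.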
